A study of Mus musculus with 2 samples.

Results

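The genes described here encode mitochondrial ribosomal proteins, taken as every gene whose symbol is Mrpl or Mrps followed by digits and at most 1 letter. The rule gave 77 genes of 23961 gene symbols, 48 named for the large subunit (Mrpl) and 29 named for the small subunit (Mrps). Each had a single row in both files, none carried a failed estimate, and all 77 stood at 1 FPKM or more, so none was lost to the filter on low values. The proteins are encoded in the nucleus, made on cytosolic ribosomes and imported into mitochondria, where they join ribosomal RNAs encoded by the mitochondrial genome. The resulting ribosome makes a small set of membrane subunits of the respiratory chain. Its small subunit reads the mRNA, and its large subunit joins amino acids and passes the growing chain to the inner membrane. Haematopoietic stem cells, which renew all blood lineages, are known for a low use of respiration at rest and for a need for mitochondria when they differentiate.

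RNA was sequenced from bone marrow cells sorted as haematopoietic stem cells from untreated C57BL/6 mice, with 1 library labelled Per2-deficient (Per2def, titled KO) and 1 labelled wild type (Per2wt). Both sets of mice were kept on a light and dark cycle. The PER2 protein represses transcription within the circadian clock. The labels name neither the Per2 allele, the sort markers, the time of collection, the age of the mice nor how many animals gave a library. Deposited values are FPKM, fragments counted per kilobase of transcript and scaled to the mapped fragments of the library, so levels of different genes can be set side by side. Because each genotype has a single library, the values carry no replicate error and no test was possible. A difference below is therefore one between 2 libraries, not one shown between genotypes. Differences are log2(FPKM + 1) in the library labelled Per2def minus the same in the library labelled Per2wt, and fold values given with a gene are plain ratios of FPKM.

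Per2 itself stood at 6.16 FPKM in the library labelled Per2def and at 1.96 FPKM in the library labelled Per2wt, the opposite of what loss of its RNA would give, so every direction is between the libraries as labelled. The files hold no read totals and absolute depth is unknown. The library labelled Per2def had 10908 genes at 1 FPKM or more and the library labelled Per2wt had 10673, and single-read values of low genes put the Per2def library at 1.24 times the depth of the other. Of 13 stem and progenitor markers 10 reached 1 FPKM, among them Kit and Cd34, while Slamf1, Fgd5 and Hoxb5 were under 1 FPKM in both libraries. Flt3 stood at 51.4 FPKM in the library labelled Per2def and 48.8 FPKM in the library labelled Per2wt. In the same order of libraries Procr stood at 3.02 and 2.61 FPKM and Ly6a at 6.54 and 6.61 FPKM. The mix of stem cells and later progenitors among the sorted cells was not tested. The 13 summed to 248.2 FPKM in the library labelled Per2def and 248.5 FPKM in the library labelled Per2wt. The widest among them went opposite ways, with Cd48 at 22.6 FPKM in the library labelled Per2def and 16.0 FPKM in the library labelled Per2wt (0.47), and Hlf at 15.8 FPKM in the library labelled Per2def and 20.3 FPKM in the library labelled Per2wt (−0.34). The 13 neutrophil markers summed to 997 FPKM in the library labelled Per2def and 525 FPKM in the library labelled Per2wt, with 11 of the 12 measured higher and Retnlg listed at 0 in the library labelled Per2def. The 14 erythroid markers summed to 782 FPKM in the library labelled Per2def and 825 FPKM in the library labelled Per2wt, but they split. Alas2 and the 5 globin genes were lower, with Hba-a2 at 9.50 FPKM in the library labelled Per2def and 67.8 FPKM in the library labelled Per2wt, and Hbb-bs at 0.00297 FPKM in the library labelled Per2def and 29.2 FPKM in the library labelled Per2wt. These globin genes have near copies that can share reads. The other 8 were higher, such as Car1 at 294 FPKM in the library labelled Per2def and 177 FPKM in the library labelled Per2wt. Sums for the libraries labelled Per2def and Per2wt were 36.9 and 39.2 FPKM for 8 megakaryocyte genes, 13.3 and 10.5 FPKM for 6 T cell genes, and 13.5 and 11.6 FPKM for 6 stromal and endothelial genes. They were 9.48 and 9.23 FPKM for 6 macrophage genes and 6.30 and 6.63 FPKM for 6 B cell genes, of which Pax5 was listed at 0 in the library labelled Per2def and Ms4a1 in the library labelled Per2wt. In bulk RNA, a change in the share of a cell type and a change in RNA per cell cannot be told apart, and the part of the neutrophil, erythroid and progenitor markers in the differences below was not tested.

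Both subunits were close to level between the libraries. None of the 77 genes differed 2-fold, where 2.25% of all 11121 measured genes (those reaching 1 FPKM in either library) did. Among genes in the same range of mean FPKM, without small and predicted RNAs, 0.352% did, so a count of none is near that share. Large subunit genes summed to 906.9 FPKM in the library labelled Per2def and 917.5 FPKM in the library labelled Per2wt, a log2 ratio of −0.02. Small subunit genes summed to 473 FPKM in the library labelled Per2def and 483 FPKM in the library labelled Per2wt, a log2 ratio of −0.03. The sum of the large subunit was 1.92 times that of the small subunit in the library labelled Per2def and 1.90 times in the library labelled Per2wt, a log2 difference of 0.01. This ratio within a library does not depend on how libraries are scaled. Per gene the subunits were also at like levels. The median large subunit gene stood at 13.7 FPKM in the library labelled Per2def and 14.4 FPKM in the library labelled Per2wt. The median small subunit gene stood at 14.8 FPKM in the library labelled Per2def and 14.7 FPKM in the library labelled Per2wt.

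The differences of single genes were small and went both ways. Of the 77 genes, 34 were higher in the library labelled Per2def (44.2%), where 62% of all measured genes were, and 43 were lower (background 38%). The median difference was −0.04 for the large subunit, −0.005 for the small subunit and −0.02 for all 77, while all measured genes had a median of 0.05. When the libraries were instead scaled to the median ratio of all genes, which takes that common shift away, 27 of the 77 genes and 50.8% of all measured genes were higher. A difference of 0.1 or less on the log2 scale was seen in 43 of the 77 genes. Taken without sign, differences had a median of 0.09 for the 77 genes and 0.12 for all measured genes. For genes in the same range of mean FPKM, without small and predicted RNAs, that median was 0.11. On this scale 1 gene (1.30%) was higher by 1.2-fold or more, against 12.2% of all measured genes. Lower by 1.2-fold or more were 6 genes (7.79%), against 6.45%. With libraries scaled to the median ratio 11 of the 77 genes were lower by that much, a larger share than the 8.57% of all measured genes. On that scaling 1 was higher by that much, against 9% of all measured genes. With the upper quartile 9 were lower, against 7.7%, and 1 was higher, against 9.92%. Among the 7668 genes in the same range of mean FPKM as these genes, without small and predicted RNAs, 62.2% were higher and 37.8% lower, 8.57% were higher and 4.85% lower by 1.2-fold or more, and 0.352% were 2-fold apart. The middle 95% of their differences lay between −0.35 and 0.41, and the SD over these genes was 0.22, against 0.16 over the 77 genes.

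Levels differed far more between genes than between libraries. In the library labelled Per2def the most abundant large subunit RNA was 34.6 times the least abundant, and in the library labelled Per2wt 27.4 times. For the small subunit the span was 11.7 times in the library labelled Per2def and 12.1 times in the library labelled Per2wt. The order of the genes was nearly kept, with a Spearman correlation of 0.983 between the libraries across the 77 genes, which share both libraries and are not independent replicates. The median gene moved by 2 places in the order, 3 genes moved by more than 10 places, and 4 of the 5 most abundant were the same.

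**Figure D1:**
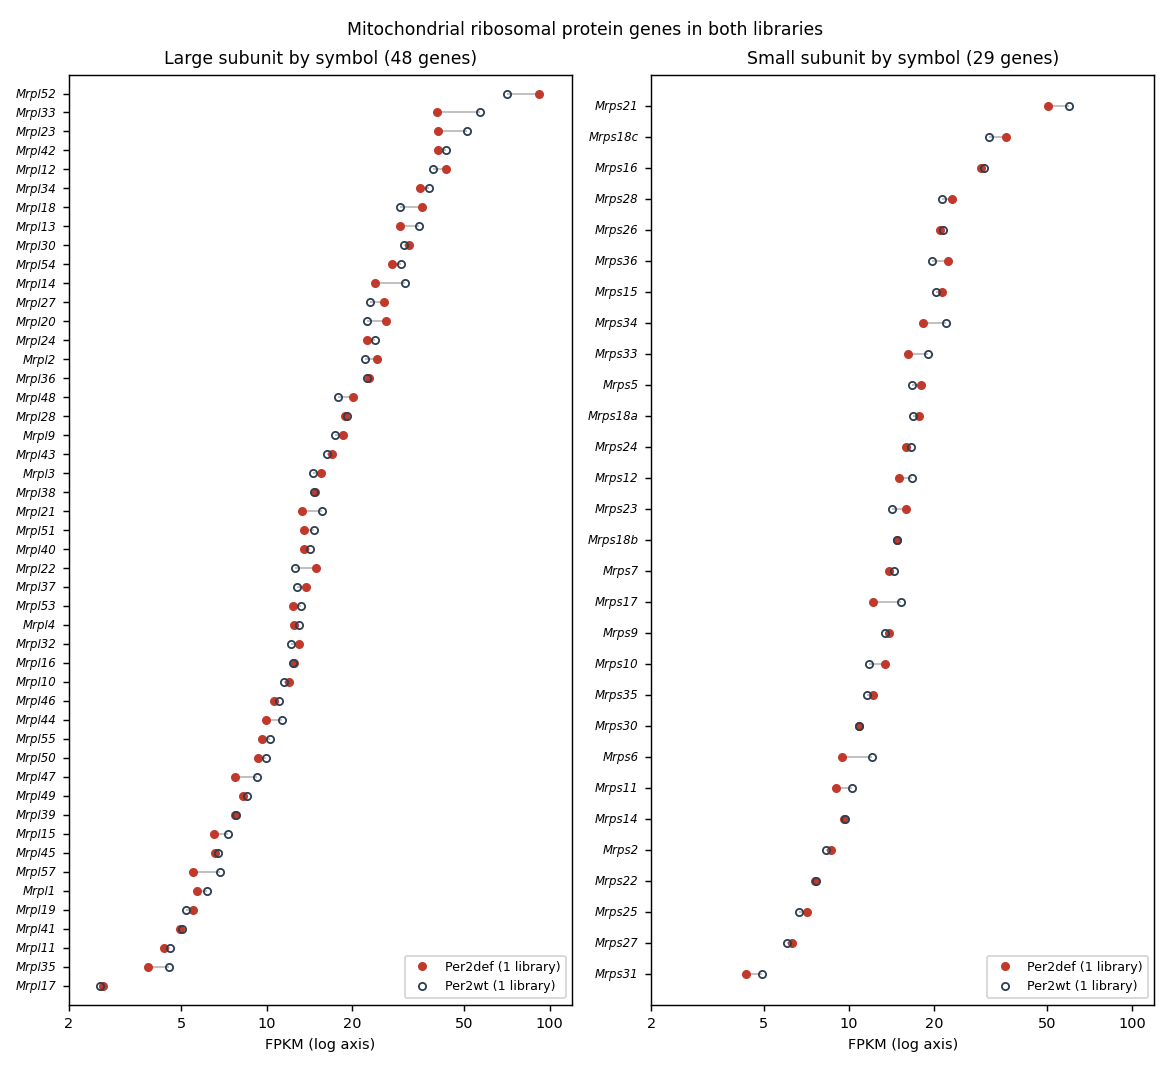
FPKM of each of the 77 genes (log axis) in the library labelled Per2def (filled red points) and the library labelled Per2wt (open points), with large subunit genes on the left and small subunit genes on the right, sorted by mean level. The gap between the points of a gene is short beside the spread of levels down each panel, and the widest gaps are at the top, in Mrpl52 and Mrpl33.

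By mean FPKM of both libraries, the large subunit was led by Mrpl52, Mrpl33 and Mrpl23, whose differences went both ways. Mrpl52, whose protein (mL52) sits near the central protuberance of the large subunit, stood at 91.5 FPKM in the library labelled Per2def and 70.7 FPKM in the library labelled Per2wt, 1.29-fold higher (log2 difference 0.37). It was the most abundant of all 77 genes in both libraries and alone in being higher by 1.2-fold or more. Its gene (ENSMUSG00000010406.12) lies on chromosome 14, 54426909 to 54429756 (GRCm38, plus strand, GENCODE M21). Mrpl33, the counterpart of bacterial L33, stood at 40.01 FPKM in the library labelled Per2def and 56.7 FPKM in the library labelled Per2wt, a ratio of 0.706 (−0.49), the widest difference of the 77. Its gene (ENSMUSG00000106918.3) lies on chromosome 5, 31596935 to 31664384. Mrpl23, a protein at the exit of the peptide tunnel, stood at 40.2 FPKM in the library labelled Per2def and 51.1 FPKM in the library labelled Per2wt (−0.34). Its gene (ENSMUSG00000037772.13) lies on chromosome 7, 142532686 to 142540747. These 3 genes made up 18.9% of the large subunit sum in the library labelled Per2def and 19.5% in the library labelled Per2wt. Without them the log2 ratio of the sums was −0.01.

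Mrpl52 and Mrpl33 are the genes with the widest difference in each direction, and the stretches around their annotated starts are shown for that reason. Both run from 140 bases before to 10 bases after the RefSeq start (GRCm38.p6, plus strand), at chr14:54426769-54426918 for Mrpl52 and chr5:31613811-31613960 for Mrpl33. Capitals mark CCGGAAG on either strand, the core letters bound by ETS factors such as GABP, a known regulator of genes for mitochondrial proteins.
Mrpl52: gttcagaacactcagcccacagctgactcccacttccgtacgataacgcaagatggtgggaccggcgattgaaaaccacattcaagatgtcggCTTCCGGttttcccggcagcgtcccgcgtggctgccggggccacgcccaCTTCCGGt
Mrpl33: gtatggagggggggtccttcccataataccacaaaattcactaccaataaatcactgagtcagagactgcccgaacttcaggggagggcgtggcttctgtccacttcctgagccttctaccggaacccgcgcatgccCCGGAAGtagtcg
The ETS letters occurred 2 times in the Mrpl52 stretch and 1 time in the Mrpl33 stretch, so genes with opposite differences both held them.

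The remaining large subunit genes differed less than Mrpl33 and Mrpl52, in both directions. Mrpl18, also of the central protuberance, stood at 35.4 FPKM in the library labelled Per2def and 29.6 FPKM in the library labelled Per2wt (0.25). Mrpl22, which lines the peptide tunnel, stood at 14.9 FPKM in the library labelled Per2def and 12.6 FPKM in the library labelled Per2wt (0.22). Mrpl20, the counterpart of a bacterial protein needed to assemble the large subunit, stood at 26.4 FPKM in the library labelled Per2def and 22.7 FPKM in the library labelled Per2wt (0.21). These were the next highest differences after Mrpl52. Among the lowest, Mrpl14, whose protein lies at the face that meets the small subunit and is bound by the assembly factor Malsu1, stood at 24.2 FPKM in the library labelled Per2def and 30.8 FPKM in the library labelled Per2wt (−0.34). Its gene (ENSMUSG00000023939.7) lies on chromosome 17, 45686322 to 45698495. Mrpl57 (mL63), a protein with no bacterial counterpart, stood at 5.51 FPKM in the library labelled Per2def and 6.87 FPKM in the library labelled Per2wt (−0.27). Its gene (ENSMUSG00000021967.4) lies on chromosome 14, 57826234 to 57829296. The least abundant RNA was Mrpl17, a tunnel exit protein, at 2.64 FPKM in the library labelled Per2def and 2.58 FPKM in the library labelled Per2wt (0.02, and −0.02 with libraries scaled to the median ratio). Next were Mrpl35, the counterpart of bacterial L35, at 3.80 FPKM in the library labelled Per2def and 4.51 FPKM in the library labelled Per2wt (−0.20), and Mrpl11, at 4.32 FPKM in the library labelled Per2def and 4.57 FPKM in the library labelled Per2wt (−0.07). All of these low RNAs differed by 1.2-fold or less.

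By place in the particle, the stalk that recruits translation factors had Mrpl12 at 43.1 FPKM in the library labelled Per2def and 38.7 FPKM in the library labelled Per2wt (0.15). Mrpl12 protein is present in several copies per ribosome and is also known to bind the mitochondrial RNA polymerase. Its anchor Mrpl10 stood at 12.02 FPKM in the library labelled Per2def and 11.5 FPKM in the library labelled Per2wt (0.05), and Mrpl11, at the stalk base, was given above. The 6 genes of the central protuberance summed to 1.18 times as much in the library labelled Per2def, with 4 of 6 higher and a median difference of 0.09. The 6 genes around the tunnel exit summed to 0.889 times as much, with 2 of 6 higher and a median of −0.06. Of all measured genes 62% were higher. Mrpl52 gave 91.5 of 186 FPKM of the first sum in the library labelled Per2def and 70.7 of 158 FPKM in the library labelled Per2wt. For the second sum, Mrpl23 gave 40.2 of 94.8 FPKM and 51.1 of 107 FPKM, with the libraries in the same order. The gaps between the sums thus rest largely on Mrpl52 and Mrpl23. With libraries scaled to the median ratio the medians were 0.04 and −0.11, with 3 of 6 and 1 of 6 higher, against 50.8% of all measured genes. Members of each region lay on both sides of 0, from −0.06 to 0.37 in the central protuberance and from −0.34 to 0.22 at the tunnel exit.

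**Figure D2:**
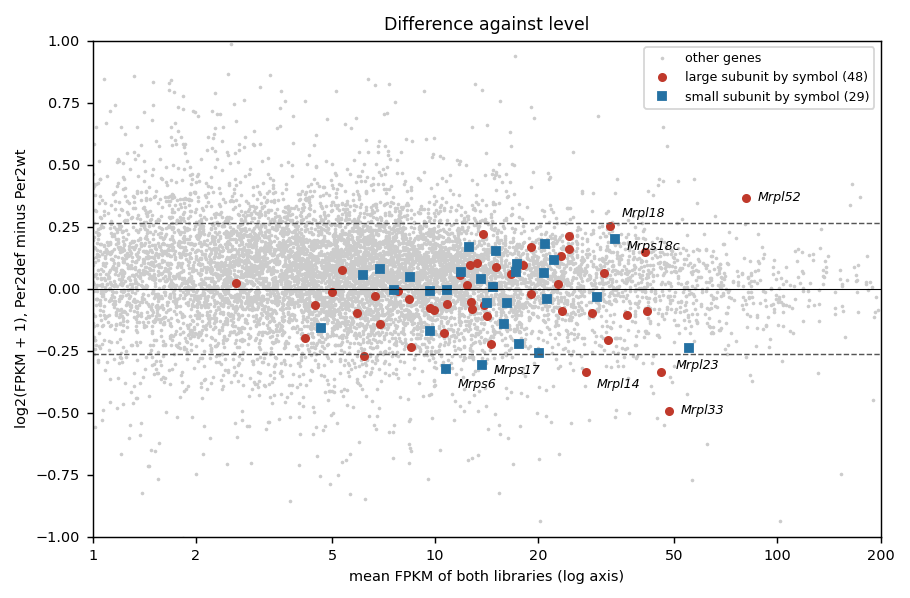
Difference between the libraries (log2(FPKM + 1), Per2def minus Per2wt) against mean FPKM (log axis) for large subunit genes (red circles), small subunit genes (blue squares) and other measured genes without small and predicted RNAs (grey), with dashed lines at 1.2-fold. The coloured points lie among the grey points of other genes, and Mrpl52 is the only one above the upper line. Genes beyond the axis limits are not drawn.

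In the small subunit 2 of 29 genes (6.9%) were lower by 1.2-fold or more on the log2(FPKM + 1) scale and none was higher by that much, against 6.45% and 12.2% of all measured genes. Mrps6, the counterpart of bacterial S6, stood at 9.43 FPKM in the library labelled Per2def and 12.1 FPKM in the library labelled Per2wt (−0.32). Its gene (ENSMUSG00000039680.10) lies on chromosome 16, 92058270 to 92112227. Mrps17, the counterpart of the rRNA-binding bacterial S17, stood at 12.1 FPKM in the library labelled Per2def and 15.3 FPKM in the library labelled Per2wt (−0.31). Its gene (ENSMUSG00000034211.14) lies on chromosome 5, 129715497 to 129722556. Mrps34 was just short of that threshold on the log2(FPKM + 1) scale (−0.26), though its plain ratio of FPKM was 0.828. It is a protein without a bacterial counterpart that the small subunit needs for stability, and stood at 18.2 FPKM in the library labelled Per2def and 21.96 FPKM in the library labelled Per2wt. With pseudocounts of 0.1 or 0.5 FPKM, 7 of the 77 genes were lower by 1.2-fold or more in place of 6. With these pseudocounts, in that order, 8.66% and 7.54% of all measured genes were lower by that much. Near Mrps34 was Mrps21, the most abundant RNA of the subunit. It stood at 50.6 FPKM in the library labelled Per2def and 59.8 FPKM in the library labelled Per2wt (−0.24). Differences above 0 were smaller, up to 0.20 in Mrps18c and 0.18 in Mrps36. Mrps10, the counterpart of bacterial S10, stood at 13.4 FPKM in the library labelled Per2def and 11.8 FPKM in the library labelled Per2wt (0.17). Mrps23, a protein without a bacterial counterpart, stood at 15.9 FPKM in the library labelled Per2def and 14.2 FPKM in the library labelled Per2wt (0.15). Mrps16, a gene whose human counterpart is mutated in a mitochondrial disease, was among the most abundant, at 29.3 FPKM in the library labelled Per2def and 30.1 FPKM in the library labelled Per2wt (−0.03). The least abundant RNA of the subunit was Mrps31, at 4.32 FPKM in the library labelled Per2def and 4.94 FPKM in the library labelled Per2wt (−0.16). Next were Mrps27, an RNA-binding protein of the subunit, at 6.31 FPKM in the library labelled Per2def and 6.04 FPKM in the library labelled Per2wt (0.05), and Mrps25, at 7.10 FPKM in the library labelled Per2def and 6.68 FPKM in the library labelled Per2wt (0.08).

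The genes for the mRNA channel and decoding site differed little. Mrps5, whose level has been linked to lifespan in mouse strains, stood at 17.9 FPKM in the library labelled Per2def and 16.7 FPKM in the library labelled Per2wt (0.10). Mrps24, the counterpart of bacterial S3 at the mRNA entry, stood at 15.9 FPKM in the library labelled Per2def and 16.6 FPKM in the library labelled Per2wt (−0.06). Mrps12, at the decoding centre, stood at 15.04 FPKM in the library labelled Per2def and 16.7 FPKM in the library labelled Per2wt (−0.14).

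Mammals have 3 relatives of bacterial S18, and their RNAs were not equal. Mrps18c, which takes the place of S18 itself, stood at 35.9 FPKM in the library labelled Per2def and 31.1 FPKM in the library labelled Per2wt (0.20). Mrps18b (mS40), elsewhere in the small subunit, stood at 14.8 FPKM in the library labelled Per2def and 14.7 FPKM in the library labelled Per2wt (0.01, and −0.05 with libraries scaled to the median ratio). Mrps18a stood at 17.7 FPKM in the library labelled Per2def and 16.8 FPKM in the library labelled Per2wt (0.07), and its protein (mL66) is part of the large subunit despite the symbol. Mrps18c was thus the most abundant of the 3 in both libraries. Mrps30 (mL65) is likewise a large subunit protein, at 10.8 FPKM in the library labelled Per2def and 10.9 FPKM in the library labelled Per2wt (−0.01). Mrps36, at 22.3 FPKM in the library labelled Per2def and 19.6 FPKM in the library labelled Per2wt (0.18), is now known as part of the alpha-ketoglutarate dehydrogenase complex and not of the ribosome. With Mrps18a and Mrps30 counted in the large subunit and Mrps36 left out, the subunit sums had log2 ratios of −0.01 (large) and −0.05 (small), and the large sum was 2.22 times the small sum in the library labelled Per2def and 2.17 times in the library labelled Per2wt.

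Proteins with a bacterial counterpart and proteins particular to mitochondrial ribosomes lay in overlapping ranges. The 46 genes of the first kind had a median difference of −0.02, with 22 higher (47.8%). The 30 of the second kind had a median of −0.02, with 11 higher (36.7%). Of all measured genes 62% were higher. With libraries scaled to the median ratio 17 of the 46 and 9 of the 30 were higher, against 50.8% of all measured genes. Their ranges, −0.49 to 0.25 and −0.27 to 0.37, overlapped over most of their length. Lower by 1.2-fold or more were 5 of the 46 (10.9%) and 1 of the 30 (3.33%, Mrpl57), against 6.45% of all measured genes.

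Transcript length went with level, and less with the size of the difference. The longest coding transcript in GENCODE M21 ran from 463 bases for Mrpl52 to 7300 bases for Mrpl17, which are the most and the least abundant of the 77. Across the 77 genes the correlation of log2 length with log2 mean FPKM was −0.62 (Pearson; Spearman −0.59), and with the absolute difference it was −0.32 (Spearman −0.31). The 39 genes at or under the median length of 1288 bases had an SD of differences of 0.19, and the 38 longer ones 0.12. Signed differences showed almost no relation to length, with a correlation of 0.04. FPKM is counted per kilobase of transcript, so length enters the level by definition. The part this plays in the correlation with level was not tested. These figures describe genes of the same libraries, and the transcript lengths used by the authors' quantification may differ from those of GENCODE M21.

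**Figure D3:**
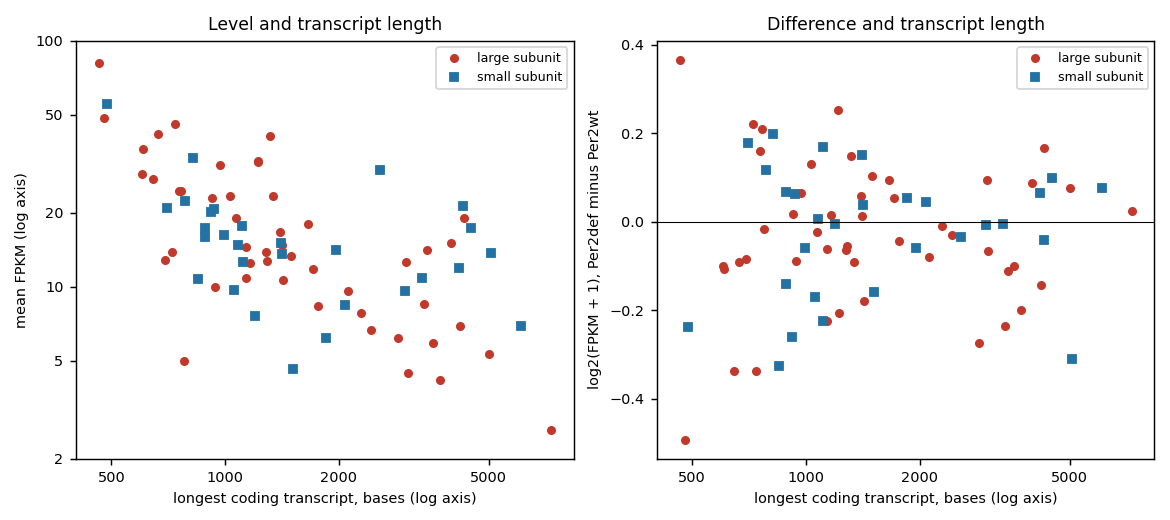
Mean FPKM (left, log axis) and the difference Per2def minus Per2wt on the log2(FPKM + 1) scale (right) against the longest coding transcript in bases (log axis), for large subunit genes (red circles) and small subunit genes (blue squares). Levels fall with length from Mrpl52 at 463 bases to Mrpl17 at 7300 bases, and differences scatter on both sides of 0 at all lengths, most widely among short transcripts.

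Some values are uncertain where genes overlap others. Exons of 21 of the 77 genes overlap those of another measured gene in GENCODE M21, and while the library kit marks strand, the sources used here do not state whether the counting used it. Mrpl14 overlaps Tmem63b, Mrpl18 overlaps Tcp1, Mrps34 overlaps Nme3 and Mapk8ip3, and Mrps6 shares exon sequence with Slc5a3 on the same strand. Without those 21 genes the median of the other 56 was −0.01, with 27 of the 56 higher, against 62% of all measured genes. The small subunit median was then 0.04, so its sign depends on which genes are counted.

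The genes lie on 17 chromosomes, 10 of them on chromosome 11 and 8 on chromosome 17. The pair Mrpl46 and Mrps11 on chromosome 7 is transcribed in opposite directions from overlapping starts (GRCm38, 78775236 to 78783531 on the minus strand and 78783119 to 78792989 on the plus strand). Mrpl46, of the central protuberance, stood at 10.6 FPKM in the library labelled Per2def and 11.1 FPKM in the library labelled Per2wt (−0.06). Mrps11 stood at 9.03 FPKM in the library labelled Per2def and 10.3 FPKM in the library labelled Per2wt (−0.17). This pair falls outside the rule for named genes and was chosen after its values were seen. The stretch upstream of Mrps11, which lies within Mrpl46, is printed on the strand of Mrps11 (GRCm38.p6, plus strand, chr7:78782991-78783140, 140 bases before to 10 after its RefSeq start). Capitals mark AAGATGGCG, letters bound by the factor YY1, on the opposite strand, and the promoter window of Mrpl46 itself did not hold them.
Mrps11: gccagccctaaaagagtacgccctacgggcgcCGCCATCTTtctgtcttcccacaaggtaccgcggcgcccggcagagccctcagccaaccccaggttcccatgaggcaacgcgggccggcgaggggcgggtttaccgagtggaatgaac
The member gene nearest to Per2 on chromosome 1 was Mrpl44, 11.6 Mb away, at 9.91 FPKM in the library labelled Per2def and 11.3 FPKM in the library labelled Per2wt (−0.18).

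Promoter windows were searched for letters bound by known regulators of mitochondrial genes. RefSeq (GRCm38.p6) gave a window of 250 bases before to 50 bases after the start for 68 of the 77 genes, with the first window used where a gene had several. On either strand, CCGGAAG (ETS) was in 24 of the 68 windows (35.3%), against 20.4% of 7951 measured protein-coding genes and 39.7% of 58 cytosolic ribosomal protein genes. AAGATGGCG (YY1) was in 8 (11.8%), against 3.71% and 5.17%. TGCGCA, the half-site of NRF1, a regulator of respiratory genes, was in 20 (29.4%), against 15.8% and 17.2%. The ETS and YY1 letters share AAG at their ends, so their matches can overlap. A match describes letters and is not a site shown to be bound. Genes with and without the ETS letters had median differences of 0.0005 and −0.02, and each group held genes of both directions.

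The E-box CACGTG, the palindrome bound by the CLOCK and BMAL1 activators that PER2 represses, was in 5 of the 68 windows (7.35%), against 10.8% of measured protein-coding genes. All 5 genes stood higher in the library labelled Per2def (median difference 0.13), though Mrpl36 was lower with libraries scaled to the median ratio or the upper quartile. Of the 63 genes without it 25 were higher (median −0.03). Over all measured protein-coding genes the contrast was slight, with a median of 0.06 and 64.8% higher among 856 genes with the letters, and 0.05 and 61.6% among 7095 without. These 5 genes were picked out by the motif after values had been seen, so the contrast is a description. Each stretch of 30 bases is given around the E-box in capitals, with GRCm38.p6 positions on the strand of the gene.
Mrpl20 (plus strand, chr4:155802833-155802862): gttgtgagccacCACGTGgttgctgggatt
Mrps18c (plus strand, chr5:100798584-100798613): gcagccccgggtCACGTGacttccggcccg
Mrpl2 (plus strand, chr17:46646078-46646107): actgccgcccgtCACGTGacccgagcaacc
Mrpl37 (minus strand, chr4:107067011-107067040): agcaagtttcttCACGTGtggcacttcaga
Mrpl36 (plus strand, chr13:73330954-73330983): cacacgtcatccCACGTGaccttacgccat
Of those not given above, Mrpl2, which lies by the peptidyl transferase centre, stood at 24.5 FPKM in the library labelled Per2def and 22.3 FPKM in the library labelled Per2wt (0.13). Mrpl37 (mL37) stood at 13.8 FPKM in the library labelled Per2def and 12.8 FPKM in the library labelled Per2wt (0.10). Mrpl36, the counterpart of bacterial L36, stood at 23.0 FPKM in the library labelled Per2def and 22.7 FPKM in the library labelled Per2wt (0.02).

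Mitoribosome subunits that carry other names also lay on both sides of 0. Of 6 such genes 4 (66.7%) had the higher value in the library labelled Per2def, against 62% of all measured genes. The differences had a median of 0.12 and a range of −0.28 to 0.28. Ptcd3, an RNA-binding protein of the small subunit, stood at 12.7 FPKM in the library labelled Per2def and 10.3 FPKM in the library labelled Per2wt (0.28). Dap3, a GTP-binding protein of the small subunit first known from cell death, stood at 8.14 FPKM in the library labelled Per2def and 6.82 FPKM in the library labelled Per2wt (0.22). Gadd45gip1, of the large subunit, differed by 0.13, and Ict1, a large subunit protein that frees stalled ribosomes, by 0.11 on the log2 scale. Aurkaip1, of the small subunit, stood at 15.03 FPKM in the library labelled Per2def and 18.4 FPKM in the library labelled Per2wt (−0.28), and Chchd1 differed by −0.09.

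Genes that build or serve the mitochondrial ribosome also lay near level. Of 25 assembly genes, which modify the rRNA or help the particle form, 18 were higher (72%), against 62% of all measured genes. Higher by 1.2-fold or more were 3 (12%), against 12.2%, and lower by that much was 1 (4%), against 6.45%. Their median was 0.08. With libraries scaled to the median ratio it was 0.03, with 14 of the 25 higher, against 50.8% of all measured genes on that scaling. The widest were Ftsj2, an rRNA methyltransferase also named Mrm2, at 3.28 FPKM in the library labelled Per2def and 1.93 FPKM in the library labelled Per2wt (0.55), and the RNA helicase gene Ddx28, at 2.48 FPKM in the library labelled Per2def and 3.58 FPKM in the library labelled Per2wt (−0.40). C1qbp, a matrix protein, was the most abundant at 67.2 FPKM in the library labelled Per2def and 63.4 FPKM in the library labelled Per2wt (0.08). Of 15 translation factors and mRNA partners 6 were higher (40%), against 62% of all measured genes. Their median was −0.01, and 14 of the 15 lay between −0.07 and 0.13. The exception was Slirp, at 48.9 FPKM in the library labelled Per2def and 37.5 FPKM in the library labelled Per2wt (0.38). Its partner Lrpprc, with which it stabilises mitochondrial mRNAs, stood at 10.8 FPKM in the library labelled Per2def and 9.74 FPKM in the library labelled Per2wt (0.13). Of 7 mitochondrial transcription genes 4 were higher (57.1%, median 0.07), against the same 62%. Among them Tfam, which packs mitochondrial DNA, stood at 6.70 FPKM in the library labelled Per2def and 6.71 FPKM in the library labelled Per2wt. The widest there were Mterfd3, at 1.72 FPKM in the library labelled Per2def and 0.990 FPKM in the library labelled Per2wt (0.45), and the elongation factor gene Tefm, at 2.62 FPKM in the library labelled Per2def and 3.14 FPKM in the library labelled Per2wt (−0.19). RNAs encoded by the mitochondrial genome were not analysed here.

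Cytosolic ribosomal protein genes, the closest comparison, were far more abundant, with differences in a narrower range apart from Rps27. The 79 genes summed to 44.1 times the 77 mitochondrial genes in each library. Their median difference was −0.03, with 22 of 79 higher (27.8%), against 62% of all measured genes. With libraries scaled to the median ratio 7 of 79 were higher, against 50.8%. The widest was Rps27, at 64.1 FPKM in the library labelled Per2def and 3.89 FPKM in the library labelled Per2wt. Near copies of this gene can share its reads, so the value is uncertain, and whether they did was not tested. With Rps27 the SD over the 79 differences was 0.43, against 0.16 over the 77 mitochondrial genes. The genes other than Rps27 lay from −0.17 in Rps15a to 0.13 in Rpl34. The most abundant, Rplp1, stood at 2015 FPKM in the library labelled Per2def and 1931 FPKM in the library labelled Per2wt (0.06). The middle 95% of differences lay between −0.34 and 0.22 for the mitochondrial genes, and between −0.12 and 0.10 for the cytosolic genes, whose FPKM levels are far higher.

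**Figure D4:**
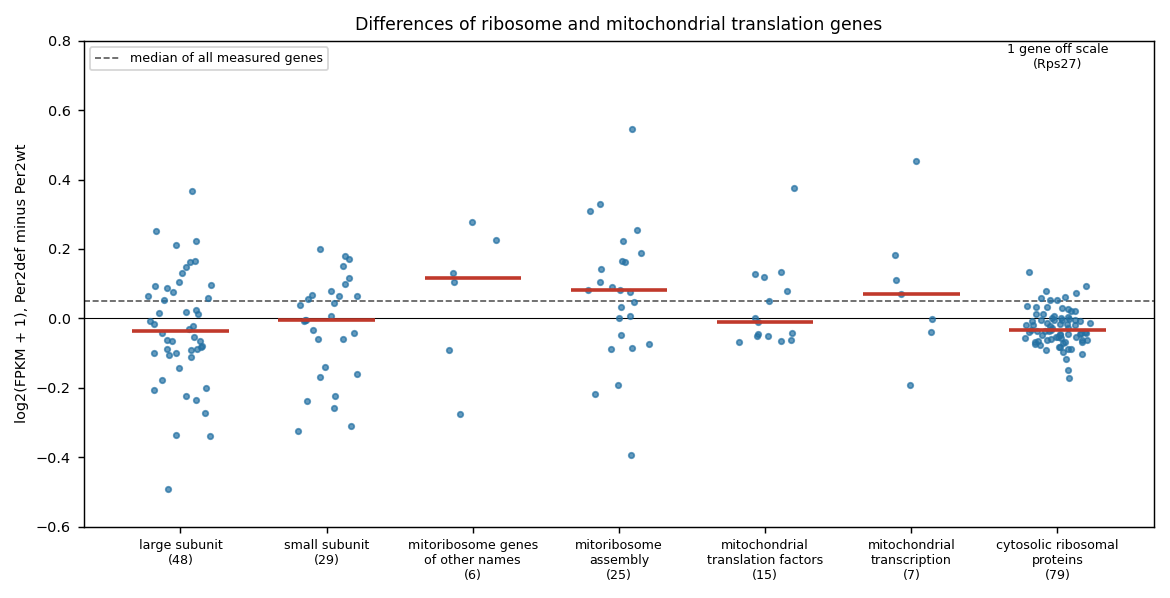
Difference between the libraries (log2(FPKM + 1), Per2def minus Per2wt) for each gene (points) of the large and small mitochondrial subunits, other genes of mitochondrial translation and transcription, and cytosolic ribosomal proteins, with the number of genes under each name. Red bars are set medians, from −0.04 for the large subunit to 0.12 for subunits of other names, and the dashed line is the median of all measured genes at 0.05.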

How the data were processed

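The authors deposited FPKM per gene. The submitters' processing notes name Cufflinks beside CASAVA 1.8, TopHat and Bowtie2, and the builds GRCm38 and mm10. Per the labels' protocols, libraries were made from poly(A) RNA with a kit that marks strand. Further tool versions, the annotation, read filters and the handling of strand in counting were not given in the sources used here.

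In each file 9 rows with a failed estimate and 27 rows with symbols turned into dates were left out, and rows sharing a symbol were summed, leaving 23961 symbols. A gene counts as measured (11121 genes) if either library has it at 1 FPKM or more. Differences use a pseudocount of 1 FPKM, which understates those of low genes, and thresholds of 1.2-fold and 2-fold on that scale stand in for calls. Small and predicted RNAs were recognised by symbol. Subunit, region and pathway lists, the members and the motifs were chosen with earlier results of these data known.

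Genes were named by rule: in each subunit the 4 highest and 4 lowest differences and the 3 most and 3 least abundant, the S18 relatives, stalk and mRNA channel genes, Mrps30, Mrps36, subunits of other names, and from each pathway list the 2 widest and the most abundant. The lists of blood cell markers are given as sums, with values for some of their genes. Flt3, Procr and Ly6a are among those that fall outside the rule. Mrpl44, Mrpl2, Mrpl37, Mrpl36, Mrpl46 and Mrps11 were added to the genes named by rule with their values already known.

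Relative depth is the inverse of the most common FPKM ratio among 3232 detected genes that stay under 0.5 FPKM in each library (256 share it). No interval can be set without read totals. Older gene names were matched through the RefSeq table. Identifiers and coordinates come from GENCODE M21 (GRCm38), which held all 77 genes, and promoter sequences from RefSeq (GRCm38.p6). Alternatives covered scaling, pseudocount, filter, rows per symbol, subunit assignment and the mean for the median. Python 3.11.15, pandas 2.3.3 and numpy 2.4.6 were used. Recovery of planted changes at the 2-fold threshold and the scaling of libraries were tested on simulated data. The 1.2-fold threshold, the subunit sums and the motif search were not.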

Additional observations from a re-analysis of the deposited data

How the results depend on the processing

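Of 396 values recomputed under an alternative, 395 stayed within 0.1 on the log2 scale of the reported value, or within 1.5 times for a count. No named gene with a difference of 1.2-fold or more changed sign. The exception was the count of genes at least 1.2-fold lower in the library labelled Per2def, which was 11 in place of 6 with libraries scaled to the median ratio, where 8.57% of all measured genes were. The same scaling moved the median of all 77 genes to −0.06 and that of all measured genes to 0.003. Much of the count of values that stayed was fixed by the settings. Of the 396 values, 248 were differences of single genes, which the filter and the rows per symbol could not change. Each rescaling shifted those genes alike, by less than the tolerance of 0.1. That tolerance is also wider than the median differences of both subunits, so staying within it does not show how firm those are. The log2 ratio of subunit sums ranged from −0.07 to −0.01 for the large subunit and from −0.09 to −0.02 for the small subunit. The large to small ratio differed between libraries by 0.01 to 0.03 on the log2 scale. Rescaling, leaving out the filter and taking the highest row per symbol could not change that ratio. Medians near 0 changed sign in some settings. The small subunit median was 0.0005 with a floor of 5 FPKM and 0.04 without genes overlapping others (an alternative added after seeing the data, like that without the 3 most abundant genes of each subunit). The median of the translation factors was 0.05 with a floor of 5 FPKM, and their mean was 0.03. The mean of the cytosolic genes was 0.02, against a median of −0.03. No paired analysis was possible because each genotype has 1 library, and leaving out a library leaves no comparison. Depth limits the low genes most, and with no read totals the counting error of no gene can be stated.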
